A study of Mus musculus with 6 samples.

Results

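This report describes 10 genes around Rsrp1, 4 of them kinases and 5 of them splicing factors, in 6 mouse tumours. The genes are Rsrp1, Clk1, Clk2, Clk3, Clk4, Srsf5, Srsf6, Srsf7, Luc7l3 and Tra2a. They were chosen by gene symbol, as splicing genes around Rsrp1, because the scaled read counts of Rsrp1 stood high in the tumours labelled shNgb. That choice used the comparison of shNgb with shVec, so the differences between these groups are given below as a description. The fit over all genes also gives counts of the 10 genes past a threshold, and nothing is read from those counts. All 10 symbols had 1 row each among the 54532 genes of the count table, and all 10 passed the filter on low counts that left 15203 genes.

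The tumours grew under the skin of Kunming mice, an outbred stock, from G422, a mouse glioblastoma line, and were not treated. All 6 samples name G422 as their source. A separate label for the cell line is numbered differently from sample to sample, and the source was followed here. In 3 tumours the inoculated cells carried a lentiviral construct labelled shNgb, named for neuroglobin, and in 3 they carried the vector, labelled shVec. The design text speaks of transfection with Ngb while the title speaks of its knockdown, so shNgb is used here as a label only. The sources used here give neither age nor sex of the mice. The tumours are called independent, without saying that each grew in its own mouse, so a p-value here covers only the spread among them. The tumours were sequenced whole, so host cells contribute RNA, and fewer cells of a type cannot be told apart from less RNA per cell.

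SR proteins are RNA-binding proteins with a tail rich in arginine and serine repeats. They bind exons and guide the spliceosome to nearby splice sites, and phosphorylation of the tail controls where they sit in the nucleus and what they bind. The CLK kinases (CDC2-like kinases) add phosphate to these tails inside the nucleus, while the SRPK kinases act mainly in the cytoplasm. Many SR protein and CLK genes make, beside the productive mRNA, transcripts with a retained intron or an extra exon that are kept in the nucleus or degraded, a known way in which splicing factors limit their own amount. Rsrp1 encodes an arginine and serine rich protein that is much less studied.

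Depth overlapped between the groups but reached higher in shNgb. The shVec libraries held 19630319 to 22427004 reads and the shNgb libraries 21018697 to 25620667 reads. Mitochondrial transcripts took 1.27% to 1.46% of the reads over all 6 libraries. The 10 genes took 0.163% to 0.168% with the vector and 0.1705% to 0.175% with shNgb. Ngb itself was scarce, with 28, 23 and 13 reads in shVec and 18, 19 and 11 reads in shNgb, and the groups overlapped. Of the markers of glial cells and neural progenitors, Nes stood at 506 ± 35.3 CPM for shVec and 414 ± 28.7 CPM for shNgb, with no overlap, and Sox2 at 18.6 ± 2.29 and 17.3 ± 4.68 CPM (SD, n = 3 each). CPM are reads scaled to a common library size. Olig2 had 0 reads in all 6 libraries, and Gfap, S100b and Sox10 had at most 0.289 CPM in any library, so the astrocyte and oligodendrocyte markers that define glia were absent or nearly so.

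Of the 10 genes, Rsrp1 lies on chromosome 4 (134923592 to 134927671, plus strand, build GRCm38), and no other annotated gene overlaps it. Clk3 lies on chromosome 9 (57750624 to 57765860, minus strand). They are the 2 genes whose shNgb and shVec tumours did not overlap, in opposite directions, and their promoters are shown for that reason. Each is the RefSeq window (build GRCm38.p6) from 250 bases before to 50 bases after the gene's start, written 5′ to 3′ on the gene's strand. Capitals mark matches on either strand to any of 5 motifs. They are the GC box GGGCGG, the CCAAT box, the TATA box written as TATAAA, the hypoxia response element core written as ACGTG, and the ETS factor core written as CCGGAAG. Matches to different motifs may overlap.
Rsrp1, chr4:134923375-134923674, plus strand: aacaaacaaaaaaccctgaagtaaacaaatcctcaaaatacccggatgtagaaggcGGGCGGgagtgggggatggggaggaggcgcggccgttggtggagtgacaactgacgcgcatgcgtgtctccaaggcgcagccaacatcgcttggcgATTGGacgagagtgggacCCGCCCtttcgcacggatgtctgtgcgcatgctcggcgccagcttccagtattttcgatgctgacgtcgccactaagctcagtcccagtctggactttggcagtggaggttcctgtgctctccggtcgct
Clk3, chr9:57765065-57765364, minus strand: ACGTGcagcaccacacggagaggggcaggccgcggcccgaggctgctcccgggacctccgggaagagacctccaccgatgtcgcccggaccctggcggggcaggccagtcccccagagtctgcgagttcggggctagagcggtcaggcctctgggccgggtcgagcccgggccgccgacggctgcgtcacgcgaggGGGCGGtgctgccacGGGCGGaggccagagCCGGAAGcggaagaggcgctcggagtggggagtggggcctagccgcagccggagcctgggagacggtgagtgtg
The Rsrp1 window holds 2 GC boxes and 1 CCAAT match, and no match to ACGTG or to CCGGAAG. Other forms of the hypoxia response and ETS cores were not searched. The Clk3 window holds 2 GC boxes, 1 hypoxia response core and 1 ETS core, and it starts inside the GENCODE gene span because the start sites of the 2 annotations differ. Promoter windows were found for 9 of the 10 genes, Clk1 being the other. All 9 hold a GC box, against 35.7% of 32851 windows in the table, and 4 hold the hypoxia response core (19.6% of all windows), 3 the CCAAT box (37.4%), 3 the ETS core (8.86%) and 0 the TATA box (13.6%). These are matches of letters, and binding was not measured. The 9 windows held 56% to 74.7% G and C, beside a median of 52.7% over all windows. The shares are therefore not compared at like base content.

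Rsrp1 stood higher in the shNgb tumours. Read numbers were 3106, 3011 and 2925 with the vector and 3658, 5114 and 4815 with shNgb. Scaled, these were 141, 152 and 149 CPM for shVec and 176, 210.4 and 185 CPM for shNgb. All 3 shNgb tumours lay above all 3 shVec tumours, and shNgb 2 was the highest. The means were 147 ± 5.28 and 190.4 ± 17.8 CPM (SD, n = 3 each), a log2 fold change (shNgb minus shVec) of 0.37 with a standard error (SE) of 0.08, or 1.29-fold. Over 13 other ways of processing the counts, among them leaving out each tumour in turn, the value ran from 0.29 to 0.42. The SD of the shNgb tumours was wider than that of the shVec tumours, while the SD of log2 CPM within groups was 0.10, close to the median of 0.11 over the 5478 genes at 40 to 400 CPM.

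The 4 CLK kinase genes differed little between the groups. Clk1, known for splicing its own transcript into a kinase-less form, stood at 70.8, 70.4 and 73.4 CPM for shVec and 83.2, 74.0 and 69.2 CPM for shNgb. The shNgb tumours held both the highest and the lowest value, and the log2 fold change was 0.08 (SE 0.09). Clk4, the close relative of Clk1, followed a like course, with 77.1, 78.0 and 76.5 CPM for shVec and 83.4, 77.8 and 73.3 CPM for shNgb (log2 fold change 0.02, SE 0.08). In both genes the shVec values lay within the range of the shNgb values.

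Clk2 stood at 73.0, 64.7 and 68.8 CPM for shVec and 69.9, 65.5 and 64.3 CPM for shNgb, with overlap of the groups (log2 fold change -0.05, SE 0.08). Clk3, the least abundant of the 4, stood at 47.7, 44.2 and 47.7 CPM for shVec and 42.2, 44.2 and 41.8 CPM for shNgb. Its groups touched at 44.2 CPM, where shVec 2 and shNgb 2 were equal at the precision printed, and the log2 fold change was -0.12 (SE 0.08). Exons of Clk3 share 1284 of 8450 bases with Edc3, an mRNA decapping gene on the opposite strand, which stood at 47.7 ± 2.36 CPM for shVec and 50.9 ± 3.40 CPM for shNgb (SD, n = 3 each). The library kit keeps no strand, so reads from the shared bases cannot be assigned to either gene. All 4 CLK genes had their lowest value in shNgb 3. The range of the 4 genes' log2 fold changes, -0.12 to 0.08, was narrow.

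The 3 SR protein genes were the most abundant of the set and their groups overlapped. Srsf5, an SR protein first described as an insulin-induced gene of liver cells, stood at 346, 301 and 335 CPM for shVec and 295, 306 and 299 CPM for shNgb. Only shVec 2 lay among the shNgb values (log2 fold change -0.13, SE 0.07). A processed pseudogene, Gm12966, matches 810 of the 1568 bases of the Srsf5 transcript at 99.0% identity and carried 5.32% as many reads, and its counts are uncertain for that reason. With its reads added, the log2 fold change of Srsf5 was -0.13 (SE 0.07).

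Srsf6, an SR protein that binds exonic enhancers, stood at 311, 282 and 279 CPM for shVec and 296, 293 and 307 CPM for shNgb (log2 fold change 0.04, SE 0.07). Srsf7, an SR protein with a zinc knuckle, stood at 235, 271 and 227 CPM for shVec and 258, 238 and 252 CPM for shNgb (log2 fold change 0.03, SE 0.09). In both genes all 3 shNgb values lay between the lowest and the highest shVec value. No other copy at 95% identity over 250 bases was found for the 10 genes apart from Gm12966 and the shared exons of Edc3. The search took the longest protein-coding transcript of each gene against all annotated transcripts, so exon bases outside that transcript were not searched.

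Luc7l3 and Tra2a, the remaining splicing factors, stood slightly higher on average in shNgb, again with overlap. Luc7l3, a relative of the yeast Luc7 protein of the U1 snRNP, which recognises the start of an intron, stood at 199, 244 and 217 CPM for shVec and 233, 246 and 234 CPM for shNgb. The value of shVec 2 lay among the shNgb values, and the log2 fold change was 0.11 (SE 0.09). Tra2a, which binds purine-rich exon sequences as the transformer-2 protein of flies does, stood at 174, 182 and 157 CPM for shVec and 192, 168 and 169 CPM for shNgb (log2 fold change 0.05, SE 0.09). Apart from Rsrp1, the 95% confidence intervals of the genes ran from 0.808-fold (Clk3) to 1.24-fold (Luc7l3), which is the precision that 3 tumours a group gave.

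**Figure D1:**
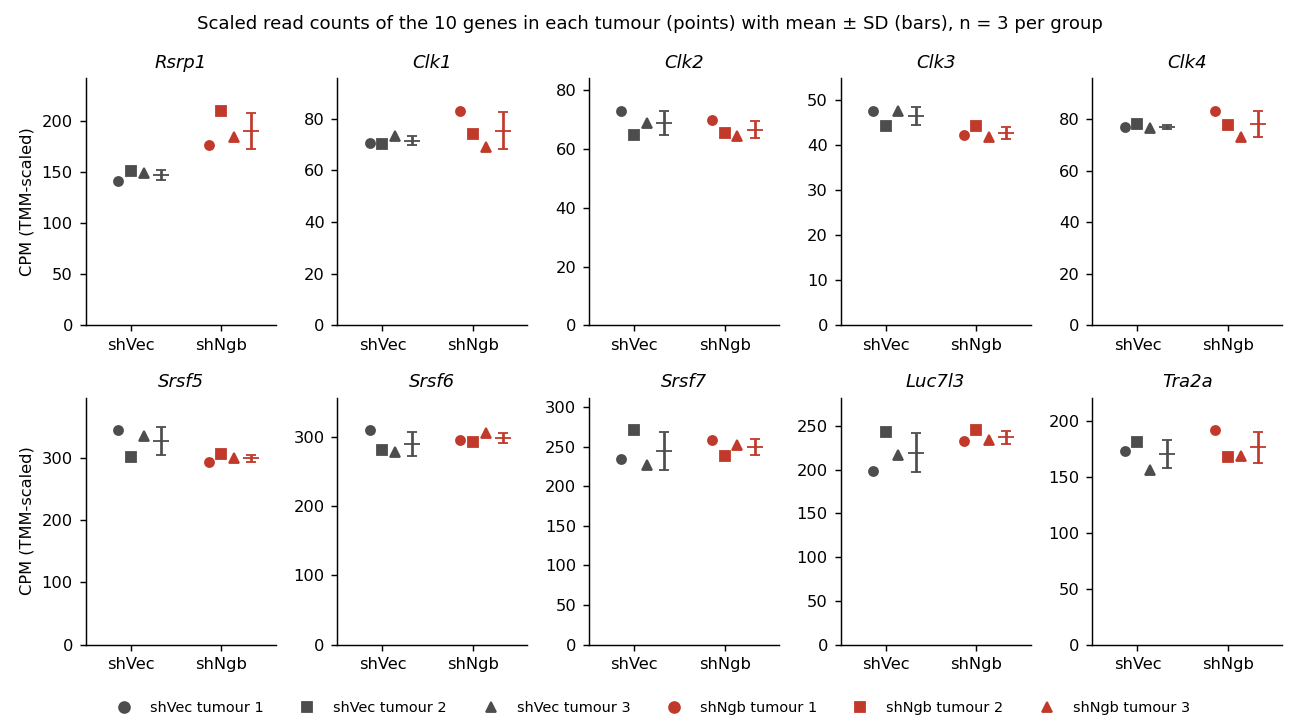
Scaled read counts (CPM, vertical axis from 0, a separate scale for each gene) of the 10 genes in the 3 shVec tumours (grey) and the 3 shNgb tumours (red), with the symbol showing the tumour number and bars the mean ± SD of the group. The Rsrp1 points of shNgb, 176 to 210.4 CPM, lie above those of shVec, 141 to 152 CPM, while in 8 of the other 9 genes the groups overlap.

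**Figure D2:**
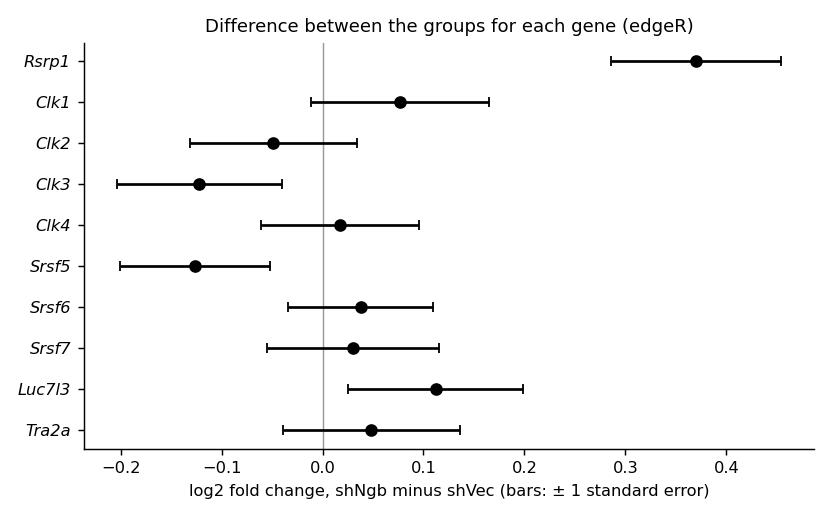
Log2 fold change of each of the 10 genes, shNgb minus shVec, from edgeR (points) with bars of 1 standard error to each side. Rsrp1 stands at 0.37 and the other 9 genes lie between -0.13 (Srsf5) and 0.11 (Luc7l3).

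As a set, the 10 genes had a median log2 fold change of 0.03, with 7 positive and 3 negative, beside a median of 0.00 and 50.9% positive over all 15203 genes tested. Without Rsrp1 the median of the other 9 was 0.03, with 6 positive. Leaving out shNgb 1 turned the median of the 10 genes to -0.01 with 4 positive, and leaving out shVec 3 turned it to -0.00 with 5 positive. In summed CPM the 10 genes stood at 1629 to 1689 in shVec and 1695 to 1728 in shNgb, and without Rsrp1 at 1480 to 1538 and 1510 to 1552, where the groups overlapped. The means of the summed CPM differed by 51.0 CPM, of which Rsrp1 made up 43.1 CPM.

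In edgeR's quasi-likelihood test with Benjamini-Hochberg adjustment, 0 of the 10 genes were called at an adjusted p under 0.05, as were 0% of the 15203 genes, so that this count says nothing about the set. At an unadjusted p under 0.05, edgeR, limma-voom and DESeq2 each passed 1 of the 10 genes, Rsrp1, by which the set was chosen. Over all genes, edgeR passed 2.58%, limma-voom 428 of 15203 genes and DESeq2 477 of 27832 genes. limma-voom called 0 of the 10 and 0% of all genes. DESeq2 called 0 of the 10 and 5 of 27832 genes (0.0180%). In 1 of the 10 genes all shNgb tumours lay above all shVec tumours (3.67% of all genes), and in 1 all lay below (3.43%). The choice of the genes used this contrast, so these counts do not support it.

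Beyond the 10 genes, 104 tested genes of 5 other splicing lists were examined. Among these, edgeR called 0 higher and 0 lower in shNgb, with 0 higher and 2 lower at an unadjusted p under 0.05, and the median log2 fold change was -0.00 with 46 positive. DESeq2 and limma-voom called 0 as well. The tumours of the groups did not overlap in 9 genes, 2 of them with all shNgb tumours above (1.92% of the 104, beside 3.67% of all genes) and 7 with all below (6.73%, beside 3.43%).

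Among the other SR proteins, 7 of 8 listed genes were tested, 3 with a positive and 4 with a negative log2 fold change (median -0.00). Srsf1, the founding member of the family, had the highest mean in both groups of these, at 619.7 ± 14.7 CPM for shVec and 652 ± 37.3 CPM for shNgb (log2 fold change 0.07, SE 0.07), and Srsf11 had the lowest fold change (-0.05, SE 0.08). The 29 SR-related and LUC7-like factors had 8 positive and 21 negative values and a median of -0.05. Nktr, a cyclophilin with an arginine and serine rich domain, stood at 164 ± 9.79 CPM for shVec and 145 ± 5.04 CPM for shNgb, with all shNgb tumours below (log2 fold change -0.18, SE 0.07, unadjusted p = 0.0383 in edgeR). Clasrp, a protein that binds CLK4, had 59.9, 55.2 and 60.6 CPM for shVec and 53.4, 52.1 and 51.2 CPM for shNgb, also with all shNgb tumours below (-0.16, SE 0.08).

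The kinases, phosphatase subunits and importer that act on SR proteins beside the CLKs, 9 of 10 tested, had 4 positive and 5 negative values (median -0.05). The cytoplasmic kinase Srpk2 stood at 116 ± 5.86 CPM for shVec and 105 ± 13.3 CPM for shNgb (-0.13, SE 0.10). Among 26 hnRNP proteins, which often oppose SR proteins at exons, 11 values were positive and 15 negative (median -0.00). Ptbp2, the neural polypyrimidine tract binding protein, stood at 68.8, 61.2 and 61.8 CPM for shVec and 59.1, 49.2 and 45.0 CPM for shNgb, so all shNgb tumours lay below (log2 fold change -0.33, SE 0.11, unadjusted p = 0.0187 in edgeR). Hnrnpdl stood at 214 ± 22.5 and 194 ± 3.58 CPM (-0.14, SE 0.09).

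Of 33 core spliceosome genes, 20 had a positive and 13 a negative value (median 0.02). Prpf6, a bridge protein of the tri-snRNP, had the lowest (-0.16, SE 0.08), and Cdc5l, a scaffold of the catalytic spliceosome, the highest (0.12, SE 0.08). Sf1, the branch point binding protein, stood at 362 ± 5.05 CPM for shVec and 336 ± 17.9 CPM for shNgb (-0.11, SE 0.07). None of these genes passed the adjusted threshold in edgeR.

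**Figure D3:**
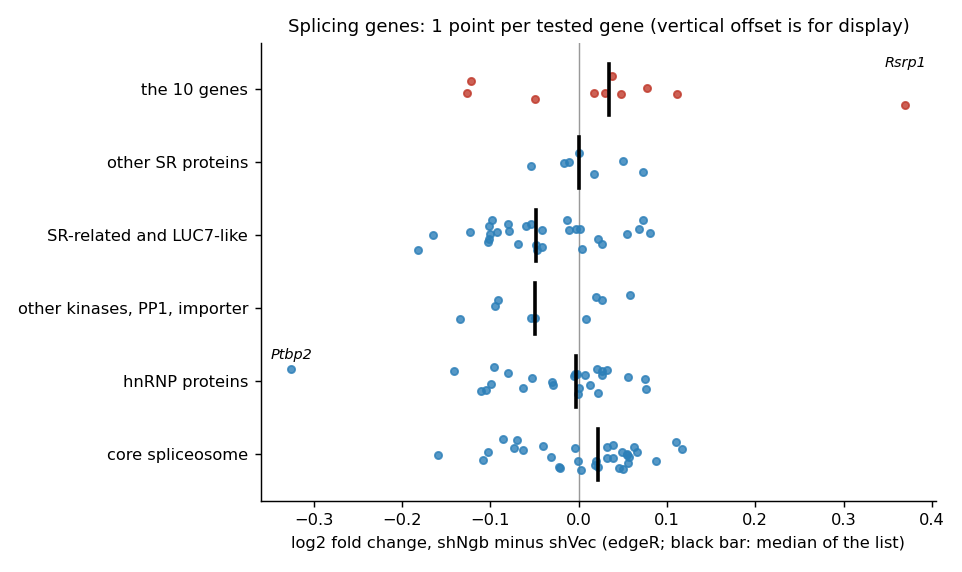
Log2 fold change (shNgb minus shVec, edgeR, horizontal axis) of each tested gene of the set of 10 (red) and of 5 further splicing lists (blue), with a black bar at the median of each list and a vertical offset for display only. The list medians lie between -0.05 and 0.03, with Rsrp1 at 0.37 and Ptbp2 at -0.33 standing farthest from 0.

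Levels between genes were compared per length, on the FPKM values that the authors deposited, over all 6 tumours. This comparison between genes did not enter their choice, but the high shNgb values of Rsrp1, which did, are part of its level. Srsf7 had the highest mean at 108 ± 7.31 FPKM (SD, n = 6), followed by Srsf5 (78.2 ± 5.42), Srsf6 (60.9 ± 2.65), Rsrp1 (50.1 ± 7.65), Luc7l3 (31.2 ± 2.38) and Tra2a (24.8 ± 1.80). The kinases came last, with Clk4 at 13.3 ± 0.59, Clk2 at 12.7 ± 0.69, Clk1 at 8.98 ± 0.63 and Clk3 at 5.25 ± 0.31 FPKM. The gene of lowest level among the other 6, Tra2a, was 1.86-fold above Clk4. Except for Srsf7, the lengths behind these values count the exons of all annotated transcripts, retained-intron ones included. Clk3 had 8450 such bases and Srsf5 3988, beside 2496 and 1568 in their longest protein-coding transcripts. The levels therefore depend on how fully each gene is annotated.

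Neighbours in this order were compared within each tumour by a two-sided exact permutation test, which over 6 tumours allows no p under 0.0313. Of 9 neighbouring pairs, 7 had the same order in all 6 tumours, each with an exact p of 0.0313 and a Benjamini-Hochberg adjusted p of 0.0402. These p-values cover the spread among tumours and not an error in gene length, which is the same in every tumour. Srsf7 over Srsf5, among the 7, reversed with annotated exon lengths, as given below. Rsrp1 over Luc7l3, also among the 7, pools groups that differ in Rsrp1. Srsf6 and Rsrp1 missed the threshold over the 6 tumours together (1.23-fold, Srsf6 higher in 5 of 6, adjusted exact p = 0.0703). The value for Srsf6 and Rsrp1 pools these groups as well. With the vector Srsf6 had 60.2 ± 3.73 FPKM and Rsrp1 43.8 ± 1.52 FPKM, with no overlap, and with shNgb they had 61.5 ± 1.504 and 56.4 ± 5.02 FPKM (SD, n = 3 each), where Rsrp1 lay above Srsf6 in shNgb 2. Clk4 and Clk2 missed the threshold as well (1.05-fold, Clk4 higher in 5 of 6 tumours, adjusted exact p = 0.0938).

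The place of Srsf7 depends on its length. For 9 of the 10 genes the length behind the deposited FPKM, scaled to the median gene, lay within 0.1% of the exon length in the GENCODE M21 annotation, while for Srsf7 it was 0.642 times that length. With annotated exon lengths Srsf7 stood at 69.5 CPM per kilobase, below Srsf5 at 78.7. The other 8 genes kept their places, which is no check of their order, because their lengths were the same in both measures. The proportions of the 4 CLK genes in their summed FPKM varied little between tumours. Clk4 took 32.1% to 34.0%, Clk2 30.8% to 33.3%, Clk1 21.02% to 23.9% and Clk3 11.7% to 13.8%. The groups overlapped in the shares of Clk4 and Clk2 but not in the others. Clk1 took 21.02% to 22.11% for shVec and 22.27% to 23.9% for shNgb. Clk3 took 13.23% to 13.81% for shVec and 11.67% to 13.04% for shNgb. These shares were not tested between groups.

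**Figure D4:**
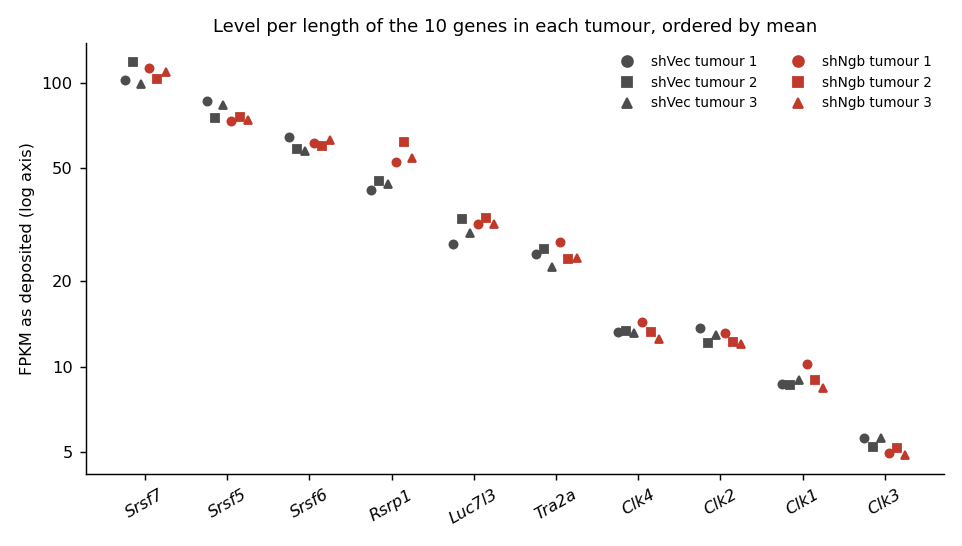
FPKM as deposited (log axis) of the 10 genes in each of the 6 tumours, ordered from left to right by their mean, with shVec in grey, shNgb in red and the symbol showing the tumour number. The SR protein genes lie highest, with Srsf7 at a mean of 108, and the 4 CLK kinase genes lowest, from 13.3 (Clk4) down to 5.25 (Clk3).

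The annotation shows what the gene counts cannot separate. All 10 genes have at least 1 annotated transcript with a retained intron, as do 58.9% of the 12539 protein-coding genes tested, and 9 of 10, Rsrp1 being the exception, have a transcript marked for nonsense-mediated decay (28.5% of those genes). The genes are also annotated more deeply, with a median of 9.5 transcripts against 5. Clk1 and Clk4 each have 7 retained-intron transcripts, of 13 and 14 in all. Rsrp1 has 8 transcripts, of which 1 is protein-coding and 1 has a retained intron. Reads were counted per gene, so a higher Rsrp1 count may hold productive and retained-intron transcripts in any proportion.

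The 10 genes did not share 1 pattern over the tumours. Luc7l3 had the highest correlation with Rsrp1 among the other 9 (Pearson r of log2 CPM 0.70, Spearman rho 0.83, over 6 tumours, rank 274 of 9054 genes with a mean of at least 10 CPM). For the other 8 genes r ran from -0.68 (Clk3) to 0.25 (Clk1). With each group centred on its mean both of these changed sign, to 0.27 for Clk3 and -0.34 for Clk1, and Luc7l3 stood at 0.59. The genes most like Rsrp1 by r were Map3k5 (0.99), Efcab14 (0.99), BC005624 (0.99), Rnf114 (0.97) and Kat2b (0.97), with rho from 0.89 to 1. Their own differences were smaller, from 0.09 (Efcab14, SE 0.08) to 0.23 (Kat2b, SE 0.09) on the log2 scale, and Map3k5 stood at 44.2 ± 0.68 CPM for shVec and 48.6 ± 1.75 CPM for shNgb. Centred in the same way, r with Rsrp1 was 0.96 for Map3k5 and 0.79 for Kat2b. These correlations describe 6 tumours that share the contrast by which Rsrp1 was chosen, and the highest of 9054 values were picked.

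Summed levels of gene lists for hypoxia and for other cell types stood beside these values, and edgeR called none of their genes at an adjusted p under 0.05. DESeq2 called 1 of them, the collagen gene Col1a1, higher in shNgb (adjusted p = 0.0443). The 12 hypoxia targets, all tested and all with a negative value, summed to 4781 to 4929 CPM for shVec and 3184 to 4516 CPM for shNgb, with no overlap. Macrophage markers, all 9 with a positive value, summed to 112 to 204 CPM for shVec and 135 to 305 CPM for shNgb. The sums of 10 T and NK cell markers were 3.31 to 15.6 CPM for shVec and 4.002 to 34.2 CPM for shNgb, and those of 6 B and plasma cell markers 1.16 to 3.05 and 1.83 to 11.8 CPM. Fibroblast markers summed to 1633 to 1953 CPM for shVec and 1117 to 2369 CPM for shNgb, and endothelial markers to 51.1 to 52.3 and 44.8 to 59.6 CPM. Most of the fibroblast sum was Col3a1, which had 1468 ± 119 CPM for shVec, 1666 and 1514 CPM in shNgb 1 and 2, and 605 CPM in shNgb 3. Of the 5 fibroblast markers tested, 4 had a positive log2 fold change, as Rsrp1 did. So had all 9 T and NK cell markers tested, the 2 B and plasma cell markers tested and 3 of 5 endothelial markers. The 3 muscle markers tested had negative values. Col1a1 had 197, 139 and 130.1 CPM with the vector and 354, 209.7 and 281 CPM with shNgb, all shNgb tumours above (log2 fold change 0.86, SE 0.23), and Col1a2 stood at 0.96 (SE 0.31) with overlap. Skeletal muscle markers summed to 7.23 to 19.6 CPM for shVec and 5.74 to 7.03 CPM for shNgb. Each of these sums except the hypoxia and muscle sums overlapped between groups. The hypoxia sum was lowest and the immune sums highest in shNgb 3, and Rsrp1 was highest in shNgb 2. Among the shNgb tumours, shNgb 1 lay nearest the shVec tumours both in the hypoxia sum (4516 CPM) and in Rsrp1 (176 CPM). The part of these features in the Rsrp1 level was not tested.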

How the data were processed

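RNA of 6 tumours was sequenced after Trizol extraction and TruSeq library preparation, per the labels' protocols. The authors deposited read counts per Ensembl gene, as whole numbers without normalization, and FPKM values for each tumour. The submitters' processing notes list Bowtie 0.12.2 and both mm8 and mm10, with no role for either build. How reads were counted, and what was done with multiply mapped ones, is not given in the sources used here. Deposited FPKM values were the counts over the product of a gene's and a library's factor, to a largest relative deviation of 5.3e-09, in 11113 genes above 50 reads in all libraries. For 96.6% of these genes the gene factor lay within 10% of the GENCODE M21 exon length. Replicates of a group differed by 11.9 to 31.6 times the sampling noise (chi-square per degree of freedom), so no library is a copy of another of its group. Libraries of different groups were not compared in this way.

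Symbols came from GENCODE M21 (GRCm38), which named 54495 of 54532 IDs. Counts were fitted with edgeR 4.0.16 in R 4.3.3 after its default expression filter and TMM scaling, with the robust quasi-likelihood F-test on all 6 libraries and Benjamini-Hochberg adjustment over 15203 genes. Standard errors came from the F statistic. Log2 CPM for correlations used a prior count of 2. Promoter sequences are RefSeq's. Copies of each gene's longest protein-coding transcript were sought with blastn 2.17.0 at 95% identity over 250 bases. Other settings tried were DESeq2 1.42.0, limma-voom (limma 3.58.1), a replicate block, omission of each library, scaling by RLE or the upper quartile, and 2 other filters (any gene with 1 read, or 10 reads and 1 CPM in 3 libraries). The fits were also run on simulated data, whose outcome is not given here. The simulated folds were all larger than those of the 10 genes, so that run does not cover differences of their size.

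The 10 genes and all lists were chosen with earlier results of these data known. Named beside the 10 genes and Ngb were up to 4 genes of smallest p of each list described, the nuclear and cold-inducible RNAs, and the 5 genes most like Rsrp1 among those of at least 10 CPM, leaving out predicted genes and pseudogenes. The glial markers, Edc3, Gm12966 and the neighbours of Rsrp1 were named after their values were seen.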

Additional observations from a re-analysis of the deposited data

How the results depend on the processing

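None of the 10 genes was called under any of the 13 alternatives, with Rsrp1 at 0.29 to 0.42 (log2), positive in all 13, and Clk2, Clk3 and Srsf5 negative in all 13. Clk1, Clk4, Srsf7 and Tra2a turned negative in 1 or 2 of the 13. Over all genes, edgeR called 0 genes in the fit as reported, 3 with no filter beyond 1 read and 1 with the replicate block, DESeq2 called 5, and none of these was one of the 10 genes or of the other splicing lists. The replicate numbers showed no clear pairing of the tumours, though so few libraries cannot exclude it. Deviations of same-numbered libraries from their group means correlated at 0.26, -0.14 and -0.10, and 2 of 6 libraries correlated best with their own number. With the block, the median of the 10 genes was 0.04. With 1 library left out, the median of the 10 genes ran from -0.00998 (without shNgb 1) to 0.0576 (without shNgb 2) and the number of positive values from 4 (without shNgb 1) to 7. The cause was not tested. Under the other alternatives the median ran from 0.03 to 0.05. The order by level per length kept all 10 places with any tumour left out. With 1 tumour fewer the exact test of neighbours cannot reach an adjusted p under 0.05, so it was not repeated.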

Other observations

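Of 5 nuclear noncoding RNAs listed, 4 were tested, 3 with a negative and 1 with a positive log2 fold change. Neat1, the scaffold of paraspeckles, where splicing regulators gather, stood at 196, 223 and 240.2 CPM for shVec and 182, 160 and 169 CPM for shNgb, with all shNgb tumours below (log2 fold change -0.37, SE 0.09, edgeR adjusted p = 0.9997). Malat1, an RNA of the nuclear speckles that store SR proteins, stood at 413, 486 and 575 CPM for shVec and 429, 435 and 385 CPM for shNgb, with overlap (-0.24, SE 0.12). Kcnq1ot1 stood at -0.22 (SE 0.24), with overlap. Meg3, on the same side as Rsrp1, had 2.60, 1.91 and 2.70 CPM with the vector and 4.34, 2.80 and 3.33 CPM with shNgb, all shNgb tumours above (0.53, SE 0.27). The cold-inducible RNA-binding genes overlapped as well, Cirbp at 19.3 ± 5.73 and 16.5 ± 2.65 CPM and Rbm3 at 340.1 ± 71.7 and 312 ± 43.2 CPM (SD, n = 3 each).

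Among tested genes, Rsrp1 sits on chromosome 4 between Tmem50a, which ends 8568 bases away, and Syf2, a spliceosome component, which starts 3227 bases away. Tmem50a, a membrane protein gene, stood at 65.9, 63.5 and 59.9 CPM for shVec and 66.5, 69.8 and 68.7 CPM for shNgb, with all shNgb tumours above (log2 fold change 0.11, SE 0.08). Syf2 stood at 40.8, 39.5 and 40.2 CPM for shVec and 36.9, 43.7 and 38.9 CPM for shNgb, with overlap (-0.01, SE 0.09). The next tested genes out, Rhd (27420 bases away) and Runx3 (192981 bases away), overlapped between the groups (log2 fold change 0.27, SE 0.36, and -0.15, SE 0.09). Genes that did not pass the filter were not considered as neighbours. Tmem50a and Syf2 had their highest value in shNgb 2, as Rsrp1 did, while Rhd and Runx3 had their lowest there, at 1.07 and 46.6 CPM.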
